A study of Homo sapiens with 6 samples.

Results

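RAB GTPases are small membrane switches that direct vesicle traffic, and their messages were followed here in colorectal carcinoma cells with and without lentiviral SNORA28. Members were all protein-coding genes whose GENCODE symbol is RAB followed by a number and at most 1 letter, so RAB-binding proteins such as RAB3GAP1 were not members. This gave 63 RAB genes among 60612 listed genes. Of these, 46 averaged 1 FPKM or more across the 6 libraries and entered the test, while 17 stayed below that level. FPKM is a level per transcript length and per mapped fragment, so it can be compared between genes.

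The cells were HCT116, an established human colorectal carcinoma line. LV-NC was the control lentivirus and LV-SNORA28 carried the small nucleolar RNA SNORA28 in the GV235 vector, and each group had 3 libraries of poly(A) RNA collected 3 days after infection. The methods describe puromycin selection of stable SNORA28 cells, but they do not say whether these libraries came from selected cells. Nothing states that the libraries of a group came from separate cultures, so p-values measure the spread between libraries, which may be technical.

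A RAB protein binds membranes through prenyl groups at its end and cycles between a GTP-bound active form and a GDP-bound inactive form. Guanine nucleotide exchange factors (GEFs) switch it on, GTPase-activating proteins (GAPs) switch it off, and GDP dissociation inhibitors return it to the cytosol. Each RAB marks its own compartment and recruits effectors that move, tether or fuse vesicles. In intestinal epithelium, the endosomal and exocytic members carry receptors, integrins and junction proteins between the surface and the interior.

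The overexpressed gene separated the groups, with SNORA28 at 0 to 0.92 FPKM in LV-NC and 13.66 to 15.2 FPKM in LV-SNORA28. Because the libraries hold poly(A) RNA, these values need not give the level of the mature small nucleolar RNA. Which form was captured was not tested. Between 24231 and 25771 genes per library were above 0, and the tables gave no read depth, so no counting interval could be set. The share of all FPKM held by mitochondrially encoded genes was 44.4% ± 2.83 in LV-NC and 37.3% ± 1.25 in LV-SNORA28 (SD, n = 3 each). These shares did not overlap between groups. Of 9 epithelial markers, 7 reached 1 FPKM, and their summed level was 794 to 881 FPKM in LV-NC and 812 to 862 in LV-SNORA28. VIL1 and CDH17 of that list stayed near 0. Of 10 markers of blood, stromal and endothelial cells, 2 (CD68 and COL1A1) reached 1 FPKM, and COL1A2 and DCN were at 0 in every library. The sums of these 10 were 4.34 to 6.68 FPKM in LV-NC and 6.57 to 7.44 in LV-SNORA28, and their part in the results was not tested.

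The mean levels of the 46 tested RAB genes spanned 68.6-fold. RAB1B, which acts between the endoplasmic reticulum and the Golgi, was the most abundant RAB message, with 90.28, 89.95 and 88.02 FPKM in LV-NC and 92.16, 93.55 and 92.28 FPKM in LV-SNORA28. RAB5C was in the second place in LV-NC and RAB10 in the third, followed by RAB1A, RAB25 and RAB11B. Of the 45 neighbouring pairs in the LV-NC order, 40 had ranges that overlapped, so most of the order was not resolved by 3 libraries. In LV-SNORA28, RAB1B remained first by mean level, RAB10 came next, and RAB5C took rank 6. By mean over all libraries, 15 members had at least 10 FPKM and 31 lay between 1 and 10 FPKM, and the median of the tested members, 5.49 FPKM, was near that of all genes tested, 5.26 FPKM.

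**Figure D1:**
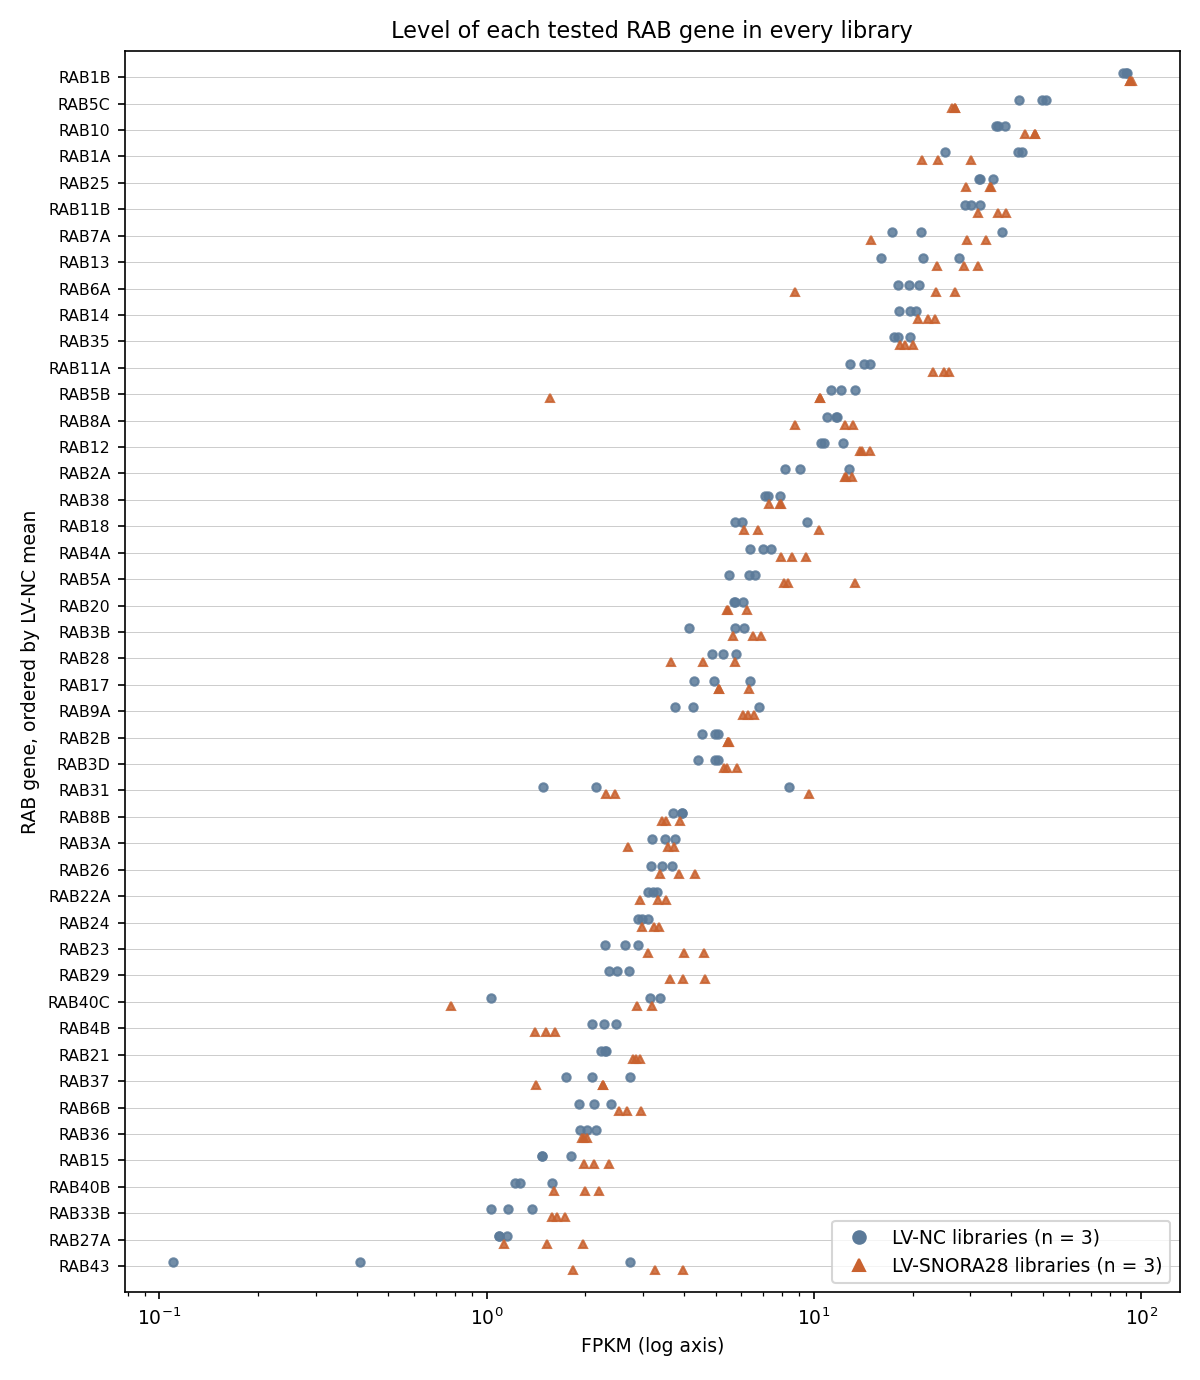
FPKM of the 46 tested RAB genes on a log axis, ordered by their LV-NC mean, with a circle for each LV-NC library and a triangle for each LV-SNORA28 library. RAB1B lies at 88.02 to 93.55 FPKM in all 6 libraries, RAB5C and RAB11A separate by group in opposite directions, and RAB5B holds a lone value of 1.56 FPKM.

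RAB11A, RAB29, RAB10 and RAB12 were higher in LV-SNORA28, and RAB5C and RAB4B were lower. A gene was called changed at an adjusted p below 0.05 in limma over 12076 genes, and fold changes refer to log2(FPKM + 1), a scale that compresses the differences of low genes. The 6 calls among 46 members are a share of 13.0%, against 8.91% of all genes tested. The 4 higher members (8.70%) stand beside 6.81% of all genes, and the 2 lower members (4.35%) beside 2.1%. These counts lie within a few genes of what the background shares give and are no result about the family. Quantile normalization moved the split of all calls from 822 higher and 254 lower to 451 and 375, and the split of the RAB calls from 4 and 2 to 3 and 2. Because RNA was taken from bulk cultures, fewer expressing cells and less RNA per cell cannot be told apart.

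RAB11A and RAB5C were called under each of the 16 alternative settings run, and the other 4 were not. Leaving out any 1 of the 6 libraries ended the calls of RAB10, RAB29 and RAB4B, and 5 of the 6 such fits ended that of RAB12. Across the tested members, 32 fold changes lay above 0 and 14 below, a share above 0 of 69.6% against 66.7% of all genes tested. After quantile normalization 25 lay above 0 and 21 below, with 49.7% of all genes above 0. The median log2 fold change of the members was 0.14, against 0.09 for all genes. Within 0.1 of 0 on the log2 scale lay 13 members. At an unadjusted p below 0.05 there were 17 members (37.0%), 15 higher and 2 lower, against 28.0% of all genes.

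Groups did not overlap, with every LV-SNORA28 library above every LV-NC library, for 16 members (34.8%), against 27% of all genes tested. The reverse held for 3 members (6.52%), against 8.16% of all genes. The study used a fold change above 1.5 and p below 0.05, without saying whether p was adjusted. Applied here with unadjusted limma p-values, which need not be those of the study, this criterion depends on the scale of the fold. On log2(FPKM + 1) it was met by RAB11A, RAB5C and RAB43, which is 6.52% of the members against 3.79% of all genes. On the ratio of mean FPKM, a scale added after the values were seen, RAB5A, RAB29 and RAB4B met it too, and the 6 members are 13.0% against 6.86% of all genes. RAB43 turned to a log2 difference of -0.25, and RAB4B to 0.17, when their read-through genes were added.

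**Figure D2:**
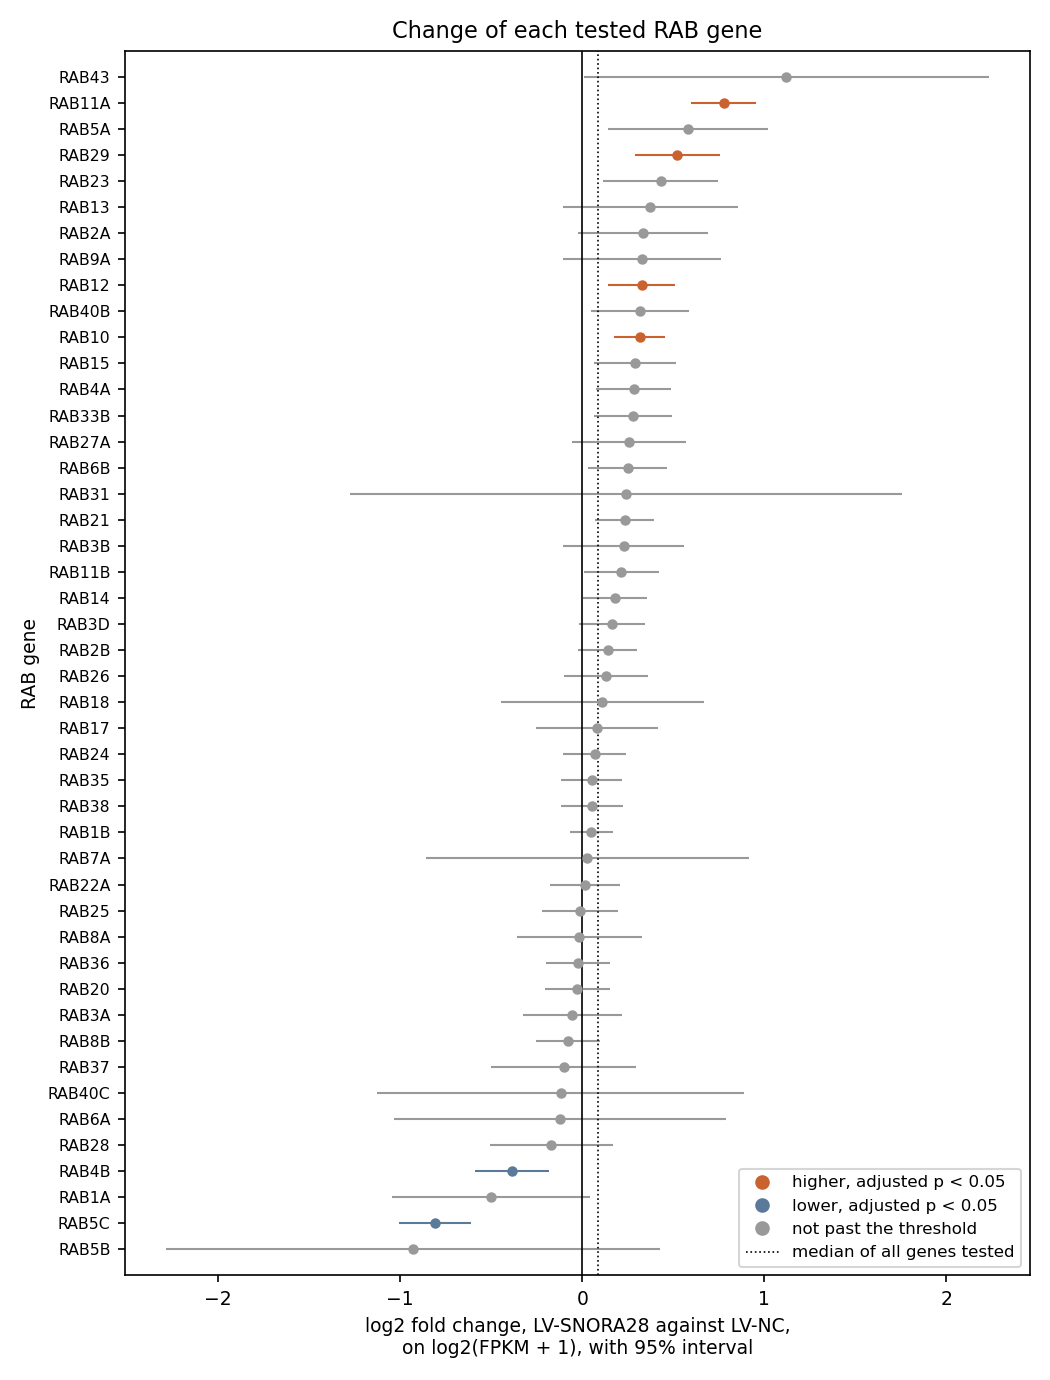
Log2 fold change of LV-SNORA28 against LV-NC on log2(FPKM + 1) for the 46 tested RAB genes, with 95% intervals from limma. Orange marks the 4 higher calls, blue the 2 lower calls and grey the others, and the dotted line is the median of all genes tested, 0.09.

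The RAB5 proteins drive the fusion of early endosomes, and of their 3 genes RAB5C alone passed the test. RAB5C (ENSG00000108774, GRCh38 chromosome 17, 42124978 to 42155044) had 42.18, 49.82 and 51.28 FPKM in LV-NC and 26.9, 26.94 and 26.37 FPKM in LV-SNORA28. All LV-NC libraries were far above all LV-SNORA28 libraries, and the latter were nearly equal. The mean fell from 47.8 ± 4.89 to 26.7 ± 0.318 FPKM (SD, n = 3), a level 1.79 times higher in LV-NC. This was a log2 fold change of -0.81 (SE 0.083, 95% interval -1.01 to -0.61, limma adjusted p 0.00596). With 1 library left out it ran from -0.89 to -0.76.

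RAB5A (ENSG00000144566, chromosome 3, 19947097 to 19985175) had 6.31, 6.61 and 5.48 FPKM in LV-NC and 8.09, 13.31 and 8.3 FPKM in LV-SNORA28. Every LV-SNORA28 library was above every LV-NC library, and replicate 2 stood well above the others. Even so, the difference of 0.58 on the log2 scale (SE 0.18, 95% interval 0.14 to 1.02) missed the threshold, at an adjusted p of 0.0987 in limma. The difference was 0.37 when LV-SNORA28 replicate 2 was left out (limma adjusted p 0.120). RAB5B (ENSG00000111540, chromosome 12, 55973913 to 55996683) had 13.36, 12.13 and 11.23 FPKM in LV-NC and 10.43, 10.41 and 1.56 FPKM in LV-SNORA28. Its difference rested on LV-SNORA28 replicate 3: the log2 fold change was -0.93 (SE 0.57, adjusted p 0.336 in limma) with that library and -0.21 (adjusted p 0.267 in limma) without it. A processed pseudogene, ENSG00000237493, lies on the opposite strand within the RAB5B locus, with 8.56 to 10.59 FPKM in LV-NC and 12.92 to 16.17 FPKM in LV-SNORA28. The library kit marked strand, but whether counting used it is not given in the sources used here.

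Because these calls are made between close copies, the coding bases around the switch II region, which touches the nucleotide, are shown for the 3 genes. Capitals mark the 15 of 69 positions at which the 3 genes are not all alike. Each stretch lies within exon 3 of the 6 exons of the canonical GENCODE 44 transcript: RAB5A at chr3:19975633-19975701 on the plus strand, RAB5B at chr12:55989979-55990047 on the plus strand and RAB5C at chr17:42128700-42128768 on the minus strand (GRCh38, written in the sense of the message).
RAB5A: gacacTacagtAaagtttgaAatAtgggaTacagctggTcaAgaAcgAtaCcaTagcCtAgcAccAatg
RAB5B: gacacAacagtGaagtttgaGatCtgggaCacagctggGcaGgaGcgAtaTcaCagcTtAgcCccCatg
RAB5C: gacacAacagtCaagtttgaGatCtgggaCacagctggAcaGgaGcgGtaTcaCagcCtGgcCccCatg
Over the whole coding sequence, RAB5A and RAB5C were identical at 72.9% of aligned positions and RAB5B and RAB5C at 77.0%. The longest run shared by their transcripts was 17 bases for RAB5A with RAB5C and 26 bases for RAB5B with RAB5C. Reads of the RAB5 genes are therefore distinguishable along most of the message. The RAB5C pseudogene RAB5CP1 was at 0 in all libraries, and RAB5CP2 reached at most 0.07 FPKM.

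Summed over the 3 genes, the RAB5 level was 66.1 ± 3.72 FPKM in LV-NC and 44.1 ± 7.30 FPKM in LV-SNORA28 (SD, n = 3), with no overlap. By an exact two-sided permutation test p was 0.1, and no lower value can be reached with 3 against 3 libraries. RAB5A made up 10.2%, 9.64% and 8.06% of this sum in LV-NC and 17.8%, 26.3% and 22.9% in LV-SNORA28. RAB5C made up 68.2%, 72.7% and 75.4% in LV-NC and 59.2%, 53.2% and 72.8% in LV-SNORA28, and its shares overlapped between groups. The FPKM ratio of RAB5A to RAB5C was 0.130 ± 0.0215 in LV-NC and 0.370 ± 0.108 in LV-SNORA28 (SD, n = 3, exact two-sided permutation p 0.1).

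**Figure D3:**
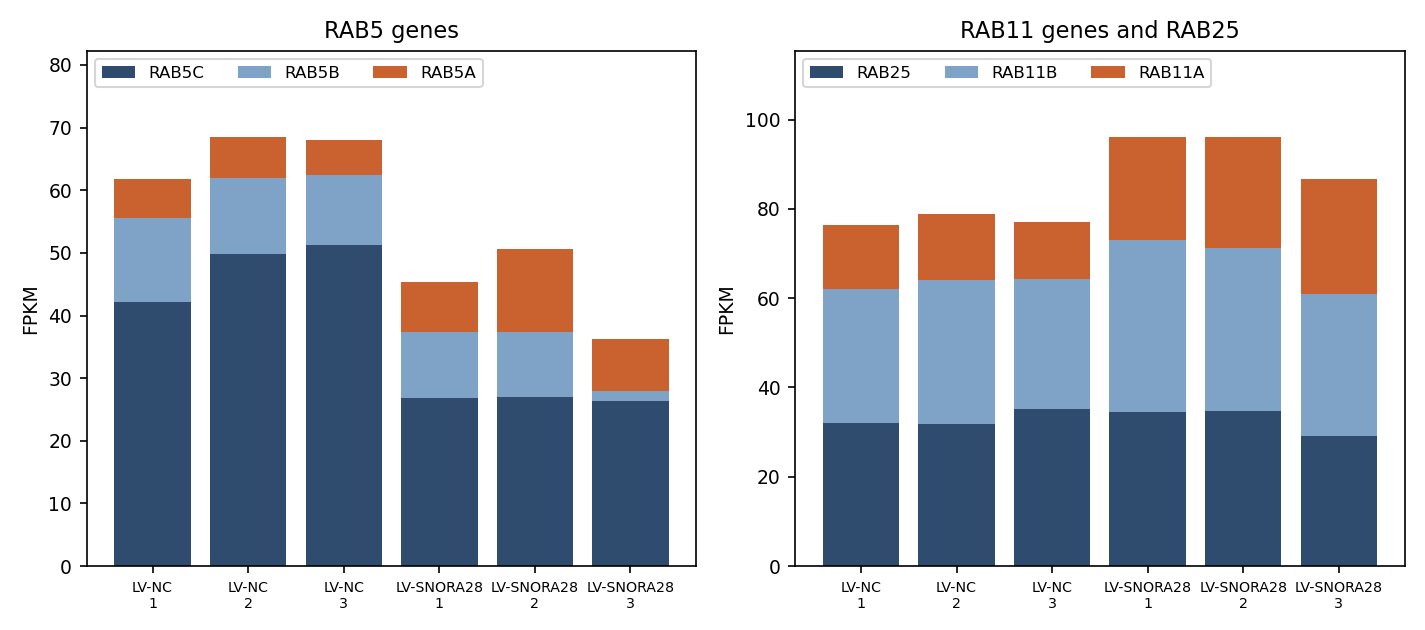
Stacked FPKM per library of the RAB5 genes (left) and of the RAB11 genes with RAB25 (right), bars starting at 0. RAB5C, the dark lower block at left, falls from 42.18 or more to 26.94 or less, and RAB11A, the orange block at right, grows from at most 14.81 to at least 23.13 FPKM.

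The other 4 early endosome members did not pass. RAB21, which handles integrins, had 2.32, 2.3 and 2.23 FPKM in LV-NC and 2.85, 2.8 and 2.93 FPKM in LV-SNORA28, without overlap, with a log2 fold change of 0.23 (95% interval 0.07 to 0.39) and an adjusted p of 0.0804 in limma. RAB20, RAB22A and RAB31 overlapped between groups. In all, 1 of the 7 early endosome members was called, beside 8.91% of all genes tested. Of the 7 fold changes, 4 were above 0, beside 66.7% of all genes tested.

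Recycling endosomes return receptors to the surface, and RAB11A is their main regulator. RAB11A (ENSG00000103769, chromosome 15, 65726054 to 65891989) had 14.18, 14.81 and 12.89 FPKM in LV-NC and 23.13, 24.93 and 25.79 FPKM in LV-SNORA28. The lowest LV-SNORA28 library was far above the highest LV-NC library. The mean rose from 14.0 ± 0.979 to 24.6 ± 1.36 FPKM (SD, n = 3), a 1.76-fold difference. The fitted log2 difference was 0.78 (SE 0.075, 95% interval 0.60 to 0.96, limma adjusted p 0.00454), and it ran from 0.72 to 0.82 with 1 library left out. DENND4A overlaps the RAB11A locus on the opposite strand, at 0.66 to 1.11 FPKM in LV-NC and 1.39 to 1.67 FPKM in LV-SNORA28. Its part in the RAB11A values was not tested.

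The paralogs of RAB11A did not pass. RAB11B (ENSG00000185236, chromosome 19, 8389981 to 8404434) had 30.11, 32.13 and 28.97 FPKM in LV-NC and 38.47, 36.4 and 31.76 FPKM in LV-SNORA28, and the groups overlapped. The fitted log2 difference of RAB11B was 0.22 (SE 0.086, limma adjusted p 0.162). RAB25 (ENSG00000132698, chromosome 1, 156061160 to 156070504), the RAB11 relative of epithelial cells, had 32.05, 31.91 and 35.22 FPKM in LV-NC and 34.59, 34.83 and 29.15 FPKM in LV-SNORA28. These values overlapped throughout, and the log2 fold change of -0.01 had a 95% interval from -0.22 to 0.20 and an adjusted p of 0.947 in limma. The upper end of that interval lies below the interval of RAB11A.

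The corresponding coding bases of the RAB11 genes and RAB25 show how far these messages differ, with capitals at the 25 of 69 positions where the 3 genes are not all alike. Each stretch runs from exon 2 into exon 3 of 5, so its genomic bounds include an intron: RAB11A chr15:65877460-65877762, RAB11B chr19:8399991-8402086 and RAB25 chr1:156066039-156068270, all on the plus strand of GRCh38.
RAB11A: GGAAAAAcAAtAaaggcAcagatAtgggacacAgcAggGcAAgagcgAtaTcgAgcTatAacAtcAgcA
RAB11B: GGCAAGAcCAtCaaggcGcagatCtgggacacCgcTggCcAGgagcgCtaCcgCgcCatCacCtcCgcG
RAB25: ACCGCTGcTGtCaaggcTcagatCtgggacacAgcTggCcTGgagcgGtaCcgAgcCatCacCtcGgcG
The coding sequences of RAB11A and RAB11B were 72.5% identical, and the longest run shared by their transcripts was 20 bases. As for the RAB5 genes, reads of these paralogs can be told apart along most of the message.

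Together the 3 genes had 77.4 ± 1.29 FPKM in LV-NC and 93.0 ± 5.47 FPKM in LV-SNORA28 (SD, n = 3). RAB11A supplied 18.6%, 18.8% and 16.7% of this sum in LV-NC and 24.05%, 25.9% and 29.7% in LV-SNORA28, without overlap. The RAB25 share was 42.7% ± 2.69 in LV-NC and 35.3% ± 1.43 in LV-SNORA28 (SD, n = 3), also without overlap. The FPKM ratio of RAB11A to RAB11B was 0.459 ± 0.0131 in LV-NC and 0.699 ± 0.106 in LV-SNORA28, with an exact two-sided permutation p of 0.1.

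**Figure D4:**
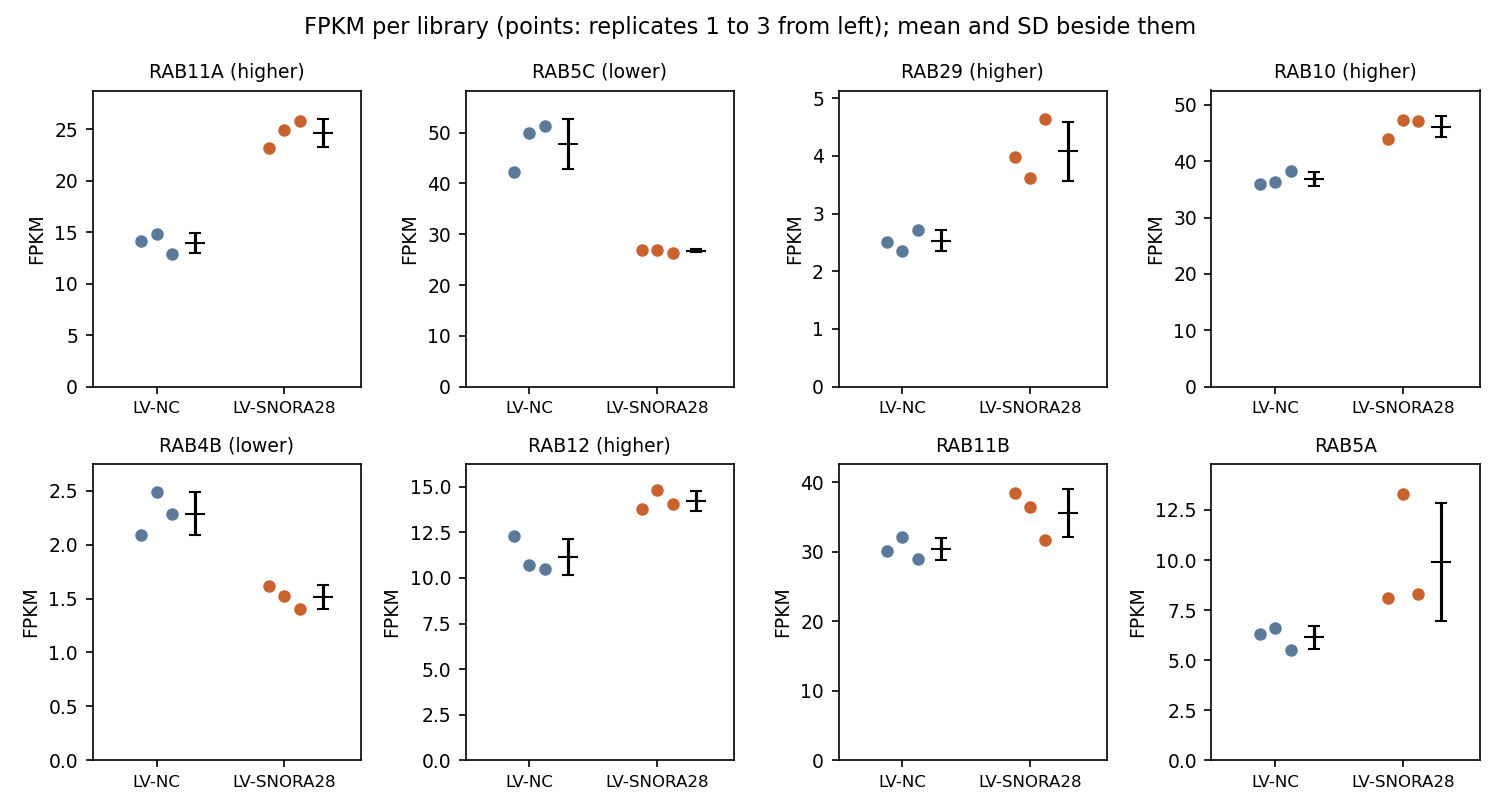
FPKM of the 6 called RAB genes and of the paralogs RAB11B and RAB5A in every library, with the mean and SD (n = 3) beside the points and axes starting at 0. RAB5C is tight at 26.37 to 26.94 FPKM in LV-SNORA28, and RAB11B and RAB5A did not pass the test.

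RAB4A and RAB4B act in fast recycling. RAB4B (ENSG00000167578, chromosome 19, 40778216 to 40796942) had 2.09, 2.49 and 2.28 FPKM in LV-NC and 1.62, 1.52 and 1.4 FPKM in LV-SNORA28, without overlap. This log2 difference of -0.39 (SE 0.085) had a limma adjusted p of 0.0410, and of 0.0868 with the replicate block. RAB4A had 6.98, 7.4 and 6.38 FPKM in LV-NC and 7.95, 8.55 and 9.42 FPKM in LV-SNORA28. Those groups did not overlap either, but the log2 difference of 0.28 (95% interval 0.077 to 0.49) missed the threshold, at a limma adjusted p of 0.0911.

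The RAB4B call did not survive when genes that share its exons were added. RAB4B-EGLN2 and MIA-RAB4B are annotated read-through genes, whose transcripts join RAB4B to a neighbour. RAB4B-EGLN2 had 0.44, 0.05 and 0.08 FPKM in LV-NC and 1.94, 1.78 and 0.57 FPKM in LV-SNORA28, so every LV-SNORA28 library was above every LV-NC library, opposite to RAB4B. MIA-RAB4B had 0.46, 0.1 and 0.14 FPKM in LV-NC and 0.38, 0.1 and 0.35 FPKM in LV-SNORA28. Summed, the 3 entries had 2.99, 2.64 and 2.5 FPKM in LV-NC and 3.94, 3.4 and 2.32 FPKM in LV-SNORA28, and the groups overlapped. For the sum, the log2 difference was 0.17 (SE 0.15, limma adjusted p 0.522). This sum was chosen after the values were seen. How fragments of shared exons were divided among these entries is not given in the sources used here.

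**Figure D5:**
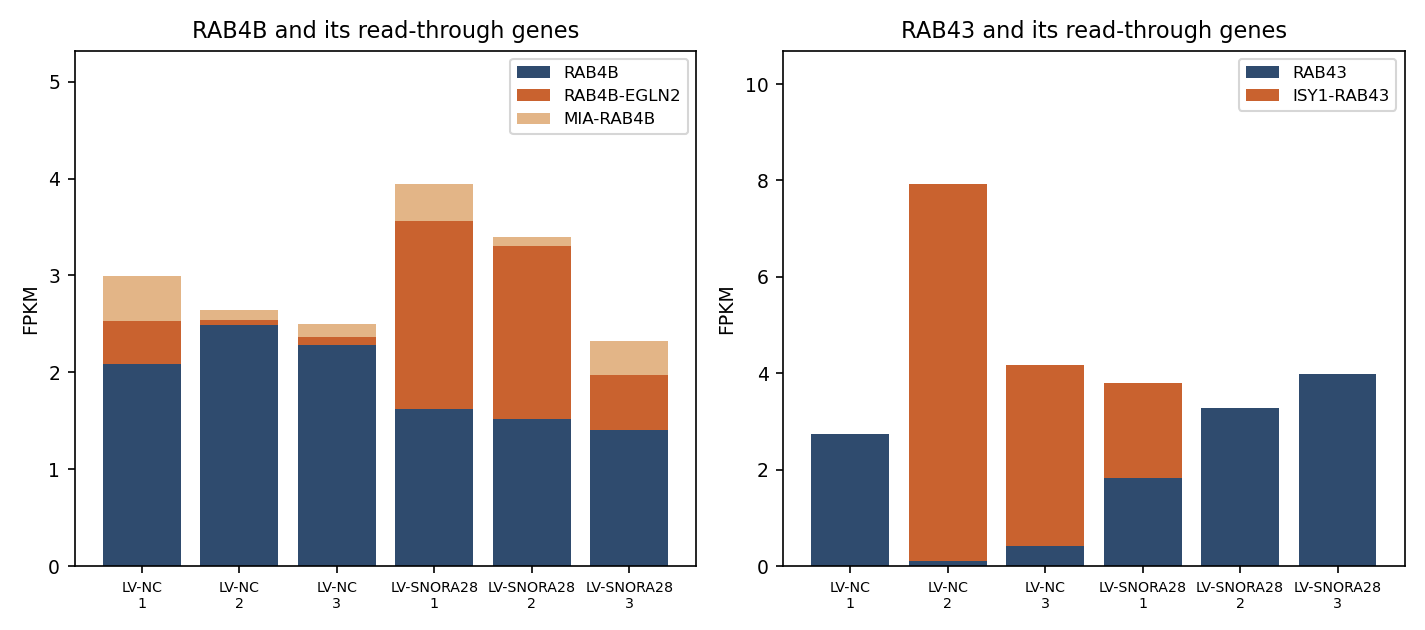
Stacked FPKM per library of RAB4B with its read-through genes (left) and of RAB43 with ISY1-RAB43 (right), bars starting at 0. RAB4B alone falls from 2.09 or more to 1.62 or less, while the stacks overlap between groups, and ISY1-RAB43 is at 0 in the 3 libraries where RAB43 is highest.

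Among the other recycling members, RAB14, RAB15, RAB17 and RAB35, none was called. RAB14, which works between endosomes and the Golgi, had 18.18, 20.53 and 19.58 FPKM in LV-NC and 20.75, 23.37 and 22.31 FPKM in LV-SNORA28, without overlap. Its adjusted p was 0.169 in limma. RAB15, an endosomal member, was also higher without overlap (log2 fold change 0.29, adjusted p 0.104 in limma), while RAB17 and RAB35 overlapped. The summed level of all 9 recycling members was 131 ± 1.41 FPKM in LV-NC and 152 ± 5.27 FPKM in LV-SNORA28 (SD, n = 3), with an exact two-sided permutation p of 0.1. Most of this rise lay in RAB11A (mean 14.0 to 24.6 FPKM) and RAB11B (30.4 to 35.5 FPKM). RAB25 was nearly level (33.1 and 32.9 FPKM), and RAB4B was lower. The early endosome sum went the other way, from 81.5 ± 6.78 to 60.7 ± 9.13 FPKM, also with the smallest possible p of 0.1. This fall came mainly from RAB5C (mean 47.8 to 26.7 FPKM) and RAB5B (12.2 to 7.47 FPKM, with a lone value of 1.56). RAB20 was nearly level (5.82 and 5.70 FPKM), and RAB5A, RAB21, RAB22A and RAB31 had higher means in LV-SNORA28. It is therefore no common move of the early endosome members.

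Of the 10 members of late endosomes, lysosomes and related organelles, 6 were tested, and RAB29 and RAB12 were called higher, 2 of 6 beside 6.81% of all genes. RAB29 (ENSG00000117280, chromosome 1, 205767986 to 205775482), which recruits the kinase LRRK2 to Golgi and lysosomal membranes, had 2.5, 2.36 and 2.72 FPKM in LV-NC and 3.98, 3.62 and 4.64 FPKM in LV-SNORA28. No overlap was seen, and LV-SNORA28 replicate 3 was the highest. The fitted log2 difference was 0.52 (SE 0.097, 95% interval 0.29 to 0.75), with a limma adjusted p of 0.0267, and of 0.0549 to 0.0804 with 1 library left out. RAB12 (ENSG00000206418, chromosome 18, 8609437 to 8639383), linked to the degradation of the transferrin receptor, had 12.28, 10.7 and 10.5 FPKM in LV-NC and 13.79, 14.82 and 14.06 FPKM in LV-SNORA28. All LV-SNORA28 libraries were higher, by 0.33 on the log2 scale (SE 0.077), but the limma adjusted p of 0.0495 was just under the threshold, and it was 0.0937 with the replicate block.

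The relatives of RAB29, the lysosome-related organelle genes RAB38 and RAB32, were not called. RAB38 had 7.08 to 7.89 FPKM in LV-NC and 7.27 to 7.95 FPKM in LV-SNORA28, with a log2 fold change of 0.05 (95% interval -0.12 to 0.22) and an adjusted p of 0.679 in limma. RAB32 did not exceed 0.17 FPKM. RAB29 made up 25.5% ± 2.32 of the summed level of these 3 genes in LV-NC and 34.4% ± 3.73 in LV-SNORA28 (SD, n = 3), without overlap. The summed level of all 10 members of this role was 54.6 ± 12.5 FPKM in LV-NC and 61.8 ± 9.68 FPKM in LV-SNORA28 (SD, n = 3). Those sums overlapped (exact two-sided permutation p 0.4). RAB9A, RAB24 and RAB7A were not called. RAB7A, the defining member of late endosomes, scattered widely within both groups, with 21.24, 37.59 and 17.33 FPKM in LV-NC and 33.45, 29.41 and 14.94 FPKM in LV-SNORA28. The fitted log2 difference of 0.03 had a 95% interval from -0.86 to 0.92, so a rise or a fall within that range remains possible.

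Among the 13 members of exocytosis and polarized delivery, 10 were tested and RAB10 was called higher, 1 of 10 beside 6.81% of all genes. RAB10 (ENSG00000084733, chromosome 2, 26034084 to 26137454), which carries basolateral and GLUT4 cargo, had 36.06, 36.37 and 38.25 FPKM in LV-NC and 43.98, 47.33 and 47.19 FPKM in LV-SNORA28. The groups were clearly apart, although the difference was modest. The mean rose 1.25-fold, with a log2 fold change of 0.32 (SE 0.059, 95% interval 0.17 to 0.46) and an adjusted p of 0.0269 in limma. With 1 library left out the adjusted p ran from 0.0504 to 0.105, and with the replicate block it was 0.0550 in limma. RAB8A and RAB8B, its closest relatives of the list, had log2 fold changes of -0.02 and -0.078 and overlapped between groups. RAB13, a tight junction member, had 21.5, 27.78 and 16.02 FPKM in LV-NC and 23.74, 31.79 and 28.63 FPKM in LV-SNORA28, which also overlapped (adjusted p 0.278 in limma).

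The secretory granule genes RAB3A, RAB3B and RAB3D lay between 2.71 and 6.89 FPKM and were not called, and RAB3C was at 0 in all 6 libraries. RAB26, RAB27A and RAB37, other secretory members, were not called either. The summed level of the exocytic list was 95.0 ± 5.03 FPKM in LV-NC and 112 ± 7.05 FPKM in LV-SNORA28 (SD, n = 3, exact two-sided permutation p 0.1).

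None of the 10 tested members of endoplasmic reticulum to Golgi and Golgi traffic was called, of 18 on the list. Beside 8.91% of all genes tested, the lack of a call among 10 is no result about this group. The summed level of the list was 176 ± 8.81 FPKM in LV-NC and 175 ± 6.17 FPKM in LV-SNORA28 (SD, n = 3, exact two-sided permutation p 0.8). RAB1B had a log2 fold change of 0.05 with a 95% interval from -0.066 to 0.17, and an adjusted p of 0.542 in limma. RAB1A, its paralog, had 25.07, 43.14 and 41.93 FPKM in LV-NC and 23.85, 21.45 and 30.15 FPKM in LV-SNORA28. The first LV-NC library lay among the LV-SNORA28 values, and the log2 difference of -0.50 (SE 0.23) missed the threshold (limma adjusted p 0.207). RAB2A, RAB2B, RAB6B, RAB18, RAB33B and RAB36 also did not pass.

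RAB43, a Golgi member, had the highest fitted fold change among the tested members and did not pass. It had 2.73, 0.11 and 0.41 FPKM in LV-NC and 1.83, 3.27 and 3.98 FPKM in LV-SNORA28, with a log2 fold change of 1.12 (SE 0.46) and an adjusted p of 0.174 in limma. The read-through gene ISY1-RAB43 had 0, 7.81 and 3.77 FPKM in LV-NC and 1.96, 0 and 0 FPKM in LV-SNORA28. It was at 0 in the 3 libraries with the highest RAB43 values and above RAB43 in the others. Their sum was 2.73, 7.92 and 4.18 FPKM in LV-NC and 3.79, 3.27 and 3.98 FPKM in LV-SNORA28. The sum gave a log2 difference of -0.25 (SE 0.30, limma adjusted p 0.623), so the direction turned. This sum was also chosen after the values were seen.

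The remaining members act at cilia or carry a SOCS box that recruits ubiquitin ligases. RAB23, which restrains Hedgehog signalling, had 2.9, 2.65 and 2.3 FPKM in LV-NC and 3.1, 4.01 and 4.6 FPKM in LV-SNORA28. Its groups were apart, and the fitted difference of 0.43 on the log2 scale (SE 0.13) missed the threshold, at a limma adjusted p of 0.0938. BAG2 overlaps the RAB23 locus on the opposite strand, at 5.94 to 6.99 FPKM in LV-NC and 7.4 to 7.82 FPKM in LV-SNORA28. Its part in the RAB23 values was not tested. RAB28, RAB40B and RAB40C were not called. The summed level of this list was 12.5 ± 1.36 FPKM in LV-NC and 13.7 ± 0.363 FPKM in LV-SNORA28 (SD, n = 3). The groups overlapped (exact two-sided permutation p 0.3).

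Some members scattered widely within a group. An SD above 40% of the mean in at least 1 group was found for 6 of 46 members (13.0%), against 7.97% of all genes tested: RAB5B, RAB6A, RAB7A, RAB31, RAB40C and RAB43. RAB6A, RAB7A, RAB31 and RAB40C were singled out after their values were seen. RAB6A, the main RAB of the Golgi, had 18.06, 21 and 19.56 FPKM in LV-NC and 23.52, 26.98 and 8.74 FPKM in LV-SNORA28. Like RAB5B, it was low in LV-SNORA28 replicate 3, without which its log2 fold change was 0.35 (adjusted p 0.132 in limma) in place of -0.12 (adjusted p 0.865). RAB31 had 1.49, 8.41 and 2.16 FPKM in LV-NC and 9.63, 2.46 and 2.31 FPKM in LV-SNORA28, and 1 library of each group stood apart. RAB40C had 1.03, 3.38 and 3.16 FPKM in LV-NC and 3.2, 0.78 and 2.87 FPKM in LV-SNORA28, with 1 low library in each group. Some libraries stood apart for more than 1 gene. LV-SNORA28 replicate 3 was low for RAB5B, RAB6A and RAB7A, at 1.56, 8.74 and 14.94 FPKM. LV-NC replicate 2 was high for RAB7A and RAB31, at 37.59 and 8.41 FPKM. Other libraries stood apart for RAB40C and RAB43. The cause was not tested.

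RAB6A shared runs of 164 and 160 bases with the retrogene-like copies RAB6C and RAB6D, which were 99.5% identical to each other in coding sequence. Their values, at most 0.98 FPKM for RAB6C and 0.29 FPKM for RAB6D, are therefore uncertain. These were among the 17 members below 1 FPKM, none of which had an adjusted p below 0.05 in the fit without a filter. The others were RAB3C, RAB7B, RAB9B, RAB19, RAB27B, RAB30, RAB32, RAB33A, RAB34, RAB39A, RAB39B, RAB40A, RAB41, RAB42 and RAB44. Many of these are known from neurons, blood cells or pigment cells, and no value of the 17 exceeded 0.98 FPKM in any library.

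Summed over all members, RAB messages had 551 ± 31.9 FPKM in LV-NC and 576 ± 26.5 FPKM in LV-SNORA28 (SD, n = 3), a difference within the spread (exact two-sided permutation p 0.3). As a share of the FPKM sum they took 0.158% ± 0.000856 in LV-NC and 0.183% ± 0.00404 in LV-SNORA28, without overlap (exact two-sided permutation p 0.1). The FPKM sum itself, the denominator, was 349575 ± 21861 in LV-NC and 315045 ± 7834 in LV-SNORA28 (SD, n = 3). It also separated the groups (exact two-sided permutation p 0.1). As a share of the sum of nuclear genes alone, the values were 0.284% ± 0.0138 and 0.291% ± 0.0115 (SD, n = 3, exact two-sided permutation p 0.6), and these overlapped.

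Shares within 11 subfamilies gave 30 comparisons, of which 7 had groups without overlap, those of RAB4A, RAB4B, RAB5A, RAB11A, RAB25, RAB29 and RAB38. Each had the smallest possible exact permutation p of 0.1, and the Benjamini-Hochberg adjusted p over the 30 was 0.429, so none passed. The 7 are not separate results, because the shares of a subfamily add up to its whole. Those of RAB4A and RAB4B mirror each other, and RAB29 and RAB38 nearly do. The share of RAB25 fell while its own mean was nearly level (33.1 and 32.9 FPKM). No such count over all genes stands beside the 7, so it is no result about the members.

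The proteins that load, switch and read RAB GTPases were examined as 4 lists with 145 genes found, of which 131 were tested. Of these, 12 were called higher and 2 lower, a share of 10.7% against 8.91% of all genes tested, and their median log2 fold change was 0.11. Quantile normalization gave 9 higher and 4 lower. Among 6 genes of prenylation and recycling, 1 was called, beside 8.91% of all genes tested. This was CHM, the escort protein that presents new RABs for prenylation. It had 1.69, 1.76 and 1.92 FPKM in LV-NC and 2.45, 2.4 and 2.6 FPKM in LV-SNORA28 (log2 fold change 0.32, adjusted p 0.0495 in limma). Its groups were apart at a low level.

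Of 45 GEFs tested, 4 were called, all higher, beside 6.81% of all genes. RGP1, a subunit of the exchange factor of RAB6, had 6.6, 4.91 and 6.21 FPKM in LV-NC and 10.55, 9.76 and 10.99 FPKM in LV-SNORA28 (log2 fold change 0.73, adjusted p 0.0149 in limma). ANKRD27, an exchange factor of RAB21, rose with a log2 fold change of 0.46 (adjusted p 0.0156 in limma). TRAPPC11, a subunit of the TRAPP complex that acts on RAB1, rose with 0.38 (adjusted p 0.0263 in limma). The other gene was CCZ1B, a near-identical copy of CCZ1, so its value is uncertain.

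Of 35 GAPs tested, 5 were called, all higher, against the same background of 6.81%. TBC1D22B had 3.83, 3.76 and 3.81 FPKM in LV-NC and 6.08, 5.71 and 6.36 FPKM in LV-SNORA28 (log2 fold change 0.55, adjusted p 0.00901 in limma). TBC1D14, which acts in recycling endosomes and autophagy, had a log2 fold change of 0.40 (adjusted p 0.0187 in limma). RAB3GAP1 had 0.35 (adjusted p 0.0228 in limma), and its partner RAB3GAP2 and TBC1D19 were the other 2 calls.

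Of 45 effectors tested, SYTL3 and MYO5A were higher and MLPH and UNC13D lower, beside 6.81% and 2.1% of all genes in those directions. SYTL3, a RAB27 effector of exocytosis, had 17.61, 18.74 and 19.96 FPKM in LV-NC and 26.36, 26.7 and 28.17 FPKM in LV-SNORA28 (log2 fold change 0.51, adjusted p 0.0106 in limma). MYO5A, the myosin motor of RAB-bound vesicles, had a log2 fold change of 0.62 (adjusted p 0.0269 in limma). MLPH, which links RAB27A to that motor, had 10.74, 9.52 and 9.37 FPKM in LV-NC and 7.1, 6.72 and 6.6 FPKM in LV-SNORA28 (log2 fold change -0.48, adjusted p 0.0167 in limma). UNC13D, a priming factor that binds RAB27A, had a log2 fold change of -0.33 (adjusted p 0.0408 in limma). The called genes of the RAB27 group therefore moved in both directions. RAB27A itself had 1.09, 1.15 and 1.09 FPKM in LV-NC and 1.13, 1.53 and 1.97 FPKM in LV-SNORA28 and was not called (adjusted p 0.259 in limma). PIGBOS1 overlaps the RAB27A locus on the same strand, at 5.81 to 6.51 FPKM in LV-NC and 7.21 to 8.15 FPKM in LV-SNORA28. Its part in the RAB27A values was not tested. In all, 19 RAB genes are overlapped by a gene on the same strand.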

How the data were processed

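RNA-seq of poly(A) RNA from HCT116 cells was compared between LV-NC and LV-SNORA28 (3 libraries each, groups from the sample titles). The authors deposited FPKM values, 1 table per library. The submitters' processing notes name cutadapt 1.9, HISAT2 2.2.1, StringTie 2.1.6, DESeq2, edgeR and hg38, without their role. The annotation release and read depth are not given in the sources used here, so precision rests on the spread between libraries. Of 60612 identifiers, 60401 matched GENCODE 44 (GRCh38), the source of symbols, coordinates and sequences, and 211 did not.

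Genes averaging 1 FPKM or more over all libraries were fitted with limma 3.58.1 (R 4.3.3) on log2(FPKM + 1), with a mean-variance trend and Benjamini-Hochberg adjustment over 12076 genes, and the fit was checked on simulated data. Members below the filter were read from a fit without it. Sums and shares were compared by exact two-sided permutation tests in Python 3.11.15. Count models were not run, since the files hold FPKM.

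Members, roles and lists were chosen with earlier results of these data known. The genes named were those called, the 5 most abundant, the 5 largest uncalled changes, subfamily members of called genes, members at 0, and up to 3 machinery genes per list and direction, with the other members added to complete each role. Alternatives were another pseudocount, filter, scaling, trend setting, replicate block, removal of GC or length trends, the threshold of the study, and each library left out. The sum with read-through genes and the threshold on ratios of mean FPKM were chosen after seeing the data.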

Additional observations from a re-analysis of the deposited data

How the results depend on the processing

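The 6 RAB calls became 2 without a filter, 3 with the replicate block, 3 at the threshold of the study on log2(FPKM + 1), and 2 to 4 with 1 library left out. RAB2A and RAB9A were called only without LV-NC replicate 2, and RAB43 only without LV-NC replicate 1 (log2 fold change 1.65, limma adjusted p 0.0360). The 1076 calls among all genes became 397 without a filter, 510 with the replicate block and 278 to 629 with 1 library left out. The 14 machinery calls became 7 without a filter, 7 at a mean of at least 5 FPKM, 7 with the replicate block and 2 to 10 with 1 library left out. The fit without a filter covers 32761 genes, and the fits that leave out a library have fewer samples. The fit at a mean of at least 5 FPKM covers 6241 genes and omits called machinery genes such as CHM and TRAPPC11. The replicate block estimates more terms from the same 6 libraries. The cause of the other differences was not tested.

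Whether libraries sharing a replicate number were prepared together is not given in the sources used here. Across genes, their departures from the group mean had correlations of -0.0441, 0.0914 and 0.00983, so little shared departure was seen. With the replicate block, RAB11A, RAB29 and RAB5C were called.

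Quantile normalization set the median log2 fold change of the RAB genes to 0.038, against 0.14, and turned 7 of the tested members, among them RAB1B at -0.058 and RAB38 at -0.044. That of RAB25 became 0.027 with the GC trend removed and 0.013 with the length trend removed, and ran from -0.055 to 0.070 with 1 library left out. With read-through genes added, RAB4B became 0.17 and RAB43 became -0.25. None of these values had passed the threshold except that of RAB4B. Over the 16 RAB genes named by rule and tested, and their alternatives, 206 values kept their direction and side of the threshold, 37 fell short of it, 8 reversed and 1 came to pass it.

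Depth is unknown, so the precision of genes near 1 FPKM cannot be given. DESeq2 was not run because the files hold no counts.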
